A study of Mus musculus with 8 samples.

Results

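Fetal liver (FL) pro-B cells that received a let-7b retrovirus were compared with adult bone marrow (BM) pro-B cells that received a Lin28b retrovirus. The comparison used 4 of the 8 arrays in the series, 2 a side, chosen by the group named in the labels and by no measured value. The other 4 arrays held FL and BM cells with empty vector, and they gave the ordinary tissue difference against which this one was set. All cells came from BALB/c Rag1 null mice, which lack the recombinase that assembles immunoglobulin genes, so B cell development stops at the pro-B stage. Each adult sort took the marrow of 2 mice, and each fetal sort took pooled livers of embryos at gestation day 16, 8 on average. Sorted pro-B cells were grown on OP9 stromal cells, a mouse marrow line, with interleukin-7 in 24 wells. The next day 12 wells received the virus under test and 12 its empty vector (pMIG for BM, MSCV for FL), and cells with the vector's green fluorescent protein were sorted 4 days later. The labels state no age for the adult mice beyond the stage. Replicates 1 and 2 were separate sorts.

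Lin28a and Lin28b are RNA-binding proteins that block maturation of the let-7 microRNAs, which in turn bind messenger RNAs through a short seed and lower their levels. Lin28b is high and mature let-7 low in fetal blood progenitors, and the reverse holds in adult ones. In mouse B cell development the fetal state is known for favouring B-1 and marginal zone B cells and for low terminal deoxynucleotidyl transferase (Dntt), the enzyme that adds untemplated bases at V(D)J junctions. The comparison therefore pairs fetal cells given the adult-type factor with adult cells given the fetal-type one. Mature let-7 was not measured by these arrays.

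The let-7 sequences are shown because the list of targets and the search of the probes below rest on their seed. The mature forms, from RefSeq (GRCm38.p6), are written 5′ to 3′ with the seed (bases 2 to 8) in capitals.
let-7a: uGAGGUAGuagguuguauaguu
let-7b: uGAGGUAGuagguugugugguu
let-7c: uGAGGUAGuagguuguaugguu
let-7e: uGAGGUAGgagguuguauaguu
let-7g: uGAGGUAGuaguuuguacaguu
let-7i: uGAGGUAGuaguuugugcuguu
The labels name let-7b as the transferred form, and all of these forms share the seed GAGGUAG. They differ from each other in the bases after it.

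Every level below is a background-corrected spot signal divided by the 75th percentile of its array, on the log2 scale, so 0 means a probe as bright as that percentile, and every difference is fetal minus adult on that scale. A gene is called where limma's adjusted p was below 0.05. Tissue, vector backbone, transferred agent, slide and scan changed together: all BM arrays lay on slide 1, and FL arrays of replicates 1 and 2 on slides 2 and 3. Their parts in any tissue difference cannot be told apart. With 2 arrays a side an exact permutation test of one value cannot go below 0.333, so the tests rest on the spread pooled over 8 arrays and all genes. In bulk RNA, fewer cells of a type and less RNA per cell cannot be told apart.

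The 75th-percentile signal was 1925 to 2234 on BM arrays and 271.5 to 487.9 on FL arrays, and 56.5% to 68.6% of spots were well above background. The median replicate SD was 0.08 in both BM groups, 0.22 in FL let-7 and 0.29 in FL empty vector. The pro-B markers Ebf1 (levels 2.48 to 3.61), Pax5 (−0.78 to −0.09), Vpreb1 (7.21 to 8.89) and Cd79a (0.31 to 2.57) were well above background on all 8 arrays. Of other cell types, the hepatocyte gene Alb was well above background on 0 of 8 arrays. Summed levels of 15 hepatocyte markers, on a linear scale on which the 75th percentile is 1, were higher in FL. They were 0.91 to 0.94 in BM Lin28b, 0.90 to 1.07 in BM empty vector, 3.08 to 3.49 in FL let-7 and 3.46 to 5.42 in FL empty vector. Of these, 9 to 10 were above background on no array of a group. Of 6 tested, 3 were higher and 1 lower in FL let-7. Summed levels of 24 stromal markers, on a linear scale on which the 75th percentile is 1, were 49.2 to 70.9 in BM Lin28b, 32.7 to 36.9 in BM empty vector, 20.0 to 26.3 in FL let-7 and 13.3 to 18.8 in FL empty vector, with 2 to 4 markers above background on no array of a group. The 23 T, NK and innate lymphoid markers summed to 15.4 to 16.3 in BM Lin28b and 16.6 to 17.2 in FL let-7, with 6 and 5 markers above background on no array. The 12 dendritic cell markers summed to 72.0 to 83.5 and 239.4 to 280.8 (4 and 4 on no array), and Siglech, a plasmacytoid dendritic cell lectin also found on early lymphoid cells, differed by 2.32 ± 0.16 (SE). The 23 myeloid markers summed to 90.7 to 99.1 and 156.9 to 168.5 (1 and 5 on no array), and the part of these cell types in the results was not tested. Rag1 itself gave levels of 0.56 and 0.70 in BM Lin28b and 3.53 and 3.09 in FL let-7, and where its probe lies relative to the deleted part was not tested.

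Most tissue differences were still there after the swap. FL let-7 and BM Lin28b differed in 13306 of 22928 genes tested, 58.0%, with 9061 higher in fetal cells (39.5%) and 4245 lower (18.5%). The empty-vector comparison called 13658 genes, 59.6%, with 9195 higher (40.1%) and 4463 lower (19.5%). Of those 13658, 11514 (84.3%) were called in the same direction after the swap, 2095 (15.3%) were not called and 49 (0.359%) were called in the opposite direction. Genes higher in fetal cells with empty vector kept their call in 7941 of 9195 cases (86.4%), and genes lower in 3573 of 4463 (80.1%). Another 1743 genes were called when swapped and not with empty vector, 1096 higher and 647 lower (13.1% of swapped calls). The arrays of the sides did not overlap for 19540 genes (85.2%). The comparisons share no array, but per the labels each sort was divided between virus and empty vector, so both draw on the same sorts, slides and pooled spread, and a call in both is not independent. With only the 4 arrays of each comparison in the fit, 9417 of 11493 empty-vector calls (81.9%) persisted and 27 turned.

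How many genes are called higher depends on the scaling. The median difference over all genes was 0.50 when swapped and 0.52 with empty vector, against 0.06 when swapped with quantile scaling and −0.31 with median scaling. Of swapped calls, 68.1% were higher in fetal cells with the 75th percentile, 49.5% with quantile scaling, 47.2% with normexp background correction and quantile scaling, and 33.8% with median scaling. The differences below are not centred, and those near 0.50 are near the median gene. With quantile scaling 9688 of 11969 empty-vector calls (80.9%) persisted.

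**Figure D1:**
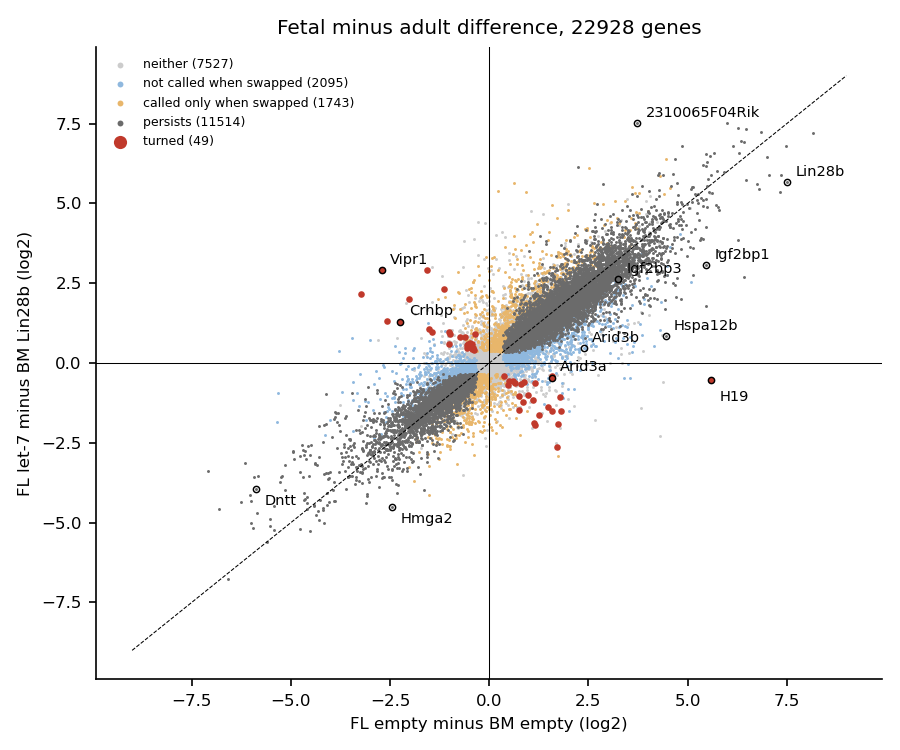
Fetal minus adult difference (log2) of 22928 genes with empty vector (x axis) and in FL let-7 minus BM Lin28b (y axis), 1 point a gene, coloured by what happened to the call. Most points lie along the diagonal, where 11514 genes keep their call, and the 49 turned genes lie in the other 2 quadrants.

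The sizes were also mostly kept. Among genes called with empty vector the swapped difference was a median 90.8% of the empty-vector one (quartiles 74.9% and 107%), and it was smaller in 65.5% of them. Chosen instead on the swapped comparison, the median was 101% (quartiles 81.9% and 118%) and 48.5% were smaller, so the side on which genes are chosen moves this figure. Across genes the comparisons had a Pearson correlation of 0.904 and a Spearman correlation of 0.912, given as a description, since genes share arrays and both comparisons share sorts and slides.

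The change in a gene's tissue difference, swapped minus empty vector and called the shift below, was tested directly. That test used group means without pairing, although each sort was divided between virus and empty vector. No fit paired the parts of each sort: the replicate block below was a single term shared by both tissues, and the slide block joined both BM sorts. Counts of called shifts under a paired fit are thus not known. On the tested probes H19 alone passed, 1 of 22928 genes (0.00436%). At an unadjusted p below 0.05, 826 genes had an upward and 756 a downward shift. A Lin28b probe that did not stand for its gene also had a called shift in a fit over single probes, given below. The count depends on the libraries and the model: without replicate 1 of FL empty vector 140 genes were called upward and 45 downward, and with slide as a random block 62 and 43. It was 0 of either direction with the replicate number as a block, with the mean of all probes of a gene, and without either array of BM Lin28b, BM empty vector or FL let-7. Apart from H19 and that Lin28b probe, a gene described below as smaller, larger or turned is so described from its 2 differences, not from a called shift.

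H19, an imprinted long noncoding RNA that is high in fetal tissue and largely silent after birth, had levels of 7.60 and 7.92 in FL empty vector and 2.28 and 2.06 in BM empty vector. After the transfers FL let-7 arrays read 4.13 and 4.12, and BM Lin28b arrays 4.71 and 4.61. The fetal signal was thus far above the adult one with empty vector and just below it when swapped, with no overlap either way. The difference went from 5.59 (adjusted p = 2.73e-04, limma) to −0.53 ± 0.16 (adjusted p = 0.035), a shift of −6.13 ± 0.23 (adjusted p = 0.00805), and the shift was −5.96 on slide 2 and −6.29 on slide 3. The shift lost its call without either array of BM Lin28b, BM empty vector or FL let-7, at −6.01 to −6.24, and under the replicate block at the same −6.13. The swapped difference alone lost its call under those settings as well. The array has another H19 probe, and the pair is shown because they do not agree; both lie on the minus strand of chromosome 7 (mm9), the brighter one at chr7:149761492-149761551 and the other at chr7:149762417-149762476.
H19, brighter probe: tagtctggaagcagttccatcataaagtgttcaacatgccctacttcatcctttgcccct
H19, other probe: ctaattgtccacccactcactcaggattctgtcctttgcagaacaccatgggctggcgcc
The other probe read −5.44 and −5.51 in BM Lin28b and −3.62 and −4.47 in FL let-7, and its difference was 2.01 with empty vector and 1.43 when swapped, with a shift of −0.58. The fetal excess thus disappears on the brighter probe and remains on the dimmer one, where signals were low. On the dimmer probe the second FL let-7 level lay near that array's dimmest spot called well above background (−4.69). Both BM Lin28b levels lay below that value, so such low levels could not be read well on that FL array. With the mean of both probes the swapped difference was 0.45 and the shift −3.36, neither of them called.

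Lin28b, which the adult cells received, stayed far higher in fetal cells on the tested probe (chr10:45096468-45096527, mm9). Its levels were −5.86 and −5.75 in BM Lin28b, −0.18 and −0.10 in FL let-7, −6.58 and −6.32 in BM empty vector, and 1.47 and 0.66 in FL empty vector. The swapped difference was 5.67 ± 0.28 (adjusted p = 5.98e-04, limma) against 7.51 with empty vector. A second probe at chr10:45140412-45140471 read the other way: BM Lin28b gave 0.35 and 0.07, FL let-7 −3.26 and −2.60, FL empty vector −2.40 and −2.53, and BM empty vector was not well above background. On that probe Lin28b was lower in FL let-7 than in BM Lin28b by 3.14 (a difference of −3.14, adjusted p = 9.65e-04 in a limma fit over single probes). With empty vector the fetal side was at least 21.4-fold higher on it, so the order of the tissues turned. Its shift was −9.68 (adjusted p = 0.00473 in the same limma fit), a size that includes BM empty-vector values below the detection limit. After Lin28b transfer the tested probe differed from empty vector by 0.64 (adjusted p = 1, limma), and the second was at least 137-fold higher than in BM empty vector. Which part of the transcript the vector carries was not tested. Lin28a, the other member of the pair, read −3.13 and −3.10 in BM Lin28b and −0.48 and −1.27 in FL let-7, a difference of 2.24 ± 0.27 that was 2.10 with empty vector.

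Arid3a, a transcription factor that promotes fetal-type B lymphopoiesis downstream of Lin28b, went from higher to slightly lower in fetal cells. Its levels were 3.66 and 3.42 in FL empty vector against 2.01 and 1.92 in BM empty vector, then 2.61 and 2.55 in FL let-7 against 2.91 and 3.16 in BM Lin28b. The groups separate on both occasions, in opposite order. The difference was 1.58 (adjusted p = 9.8e-04, limma) and then −0.46 ± 0.16 (adjusted p = 0.0493), with a shift of −2.03 ± 0.22 (adjusted p = 0.103) of −2.13 and −1.94 on the FL slides. The swapped call is weak: with 18 alternatives tried, it held in 9 settings, the main one included. Among others it was lost without any 1 array of BM Lin28b, BM empty vector or FL let-7 (−0.58 to −0.33). It was also lost with only the 4 arrays of the comparison, though the sign stayed. A second Arid3a probe gave −1.13 when swapped. Arid3b, its paralog, had levels of 1.14 and 1.21 in BM Lin28b and 1.30 and 1.97 in FL let-7 on the tested probe. There a difference of 2.38 with empty vector became 0.46 ± 0.24 (adjusted p = 0.152, limma), or −0.35 with median scaling. Its other, dimmer probes kept a called fetal excess when swapped in a limma fit over single probes. They gave 1.00 (from 2.21) and 0.76 (from 1.19).

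The Igf2bp genes encode RNA-binding proteins of fetal tissues that stabilise messenger RNAs. Igf2bp1 read −0.42 and −0.28 in FL empty vector and −1.21 and −1.18 in FL let-7, against −5.70 and −5.92 in BM empty vector and −4.00 and −4.51 in BM Lin28b. Both tissues thus moved towards each other without meeting. Its difference fell from 5.46 to 3.06 ± 0.20, 56.0% of the empty-vector value on the log2 scale, and the shift of −2.40 had an adjusted p of 0.116. Igf2bp3 had levels of −2.25 and −2.26 in BM Lin28b and 0.56 and 0.21 in FL let-7, and kept a difference of 2.64 ± 0.23 (3.25 with empty vector). Igf2bp2 was lower in fetal cells when swapped by 1.74 on the log2 scale (−1.74 ± 0.51, adjusted p = 0.0303, limma). Its levels were −2.62 and −3.05 in BM Lin28b and −4.00 and −5.15 in FL let-7, with 1 of 2 arrays of each FL group well above background. Igf2bp2 was not called with empty vector (−0.41), and its swapped call was lost without either array of BM Lin28b or BM empty vector, or without replicate 2 of FL let-7 (−1.96 to −1.17).

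Hmga2, a chromatin protein of fetal cells and a classic let-7 target, did not follow the fetal pattern in either comparison. It read −3.07 and −3.48 in FL empty vector and −0.85 and −0.81 in BM empty vector, then −3.36 and −3.26 in FL let-7 and 1.52 and 0.85 in BM Lin28b. Fetal cells were the lower side each time, and the gap widened from −2.44 to −4.49 ± 0.26 (adjusted p = 6.91e-04, limma), mostly through the higher BM Lin28b arrays. Dntt, by contrast, was 5.70 and 5.53 in BM Lin28b and 1.90 and 1.46 in FL let-7, against 6.48 and 6.41 in BM empty vector and 0.51 and 0.64 in FL empty vector. The adult excess remained without overlap, at −3.94 ± 0.18 or 67.1% of the −5.87 seen with empty vector; the shift of 1.93 had an adjusted p of 0.150.

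**Figure D2:**
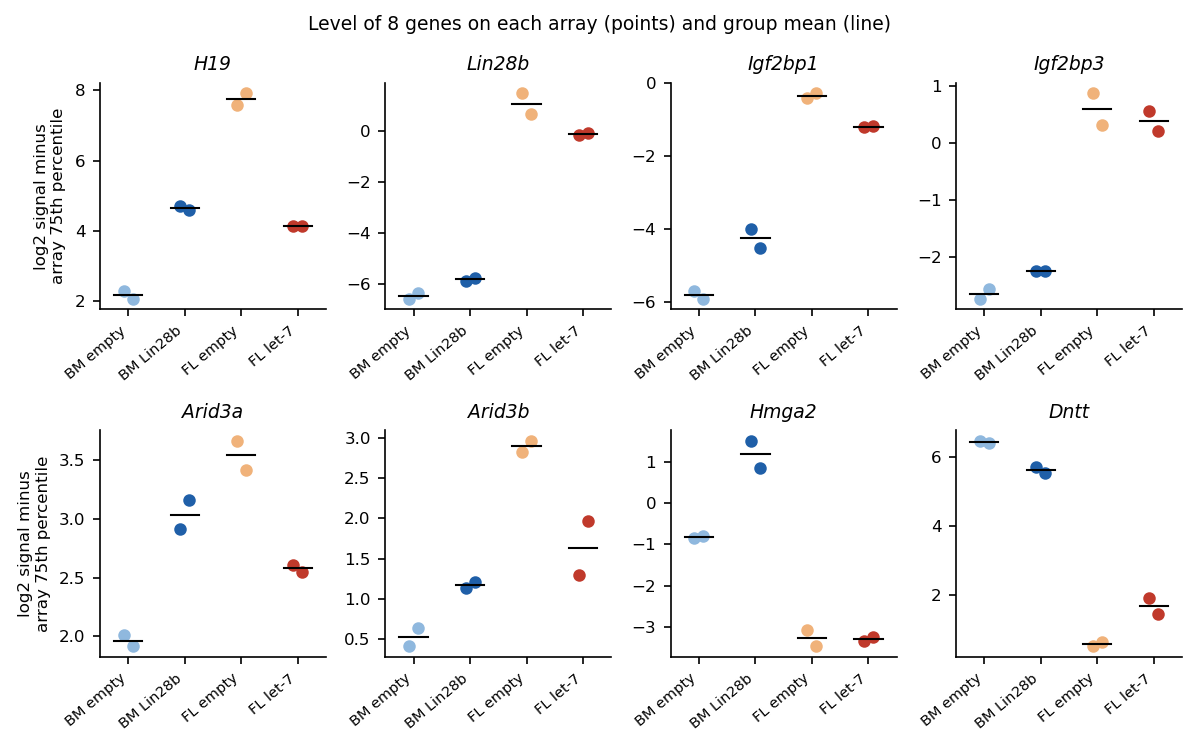
Level (log2 relative to the array's 75th percentile) of genes of the Lin28b/let-7 axis on each of the 8 arrays, 1 point an array, by group, with the group mean as a line. On the probes tested, H19 and Arid3a change order between the empty-vector and the swapped pair of groups, while Lin28b, Igf2bp1 and Dntt keep theirs; the second probes of H19 and Lin28b read otherwise.

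Known let-7 targets had mostly downward shifts, while many kept their tissue difference. Of 60 listed genes 54 were tested; with empty vector 22 were higher and 17 lower in fetal cells, and when swapped 13 were higher and 23 lower. Of the 39 called with empty vector 29 kept their direction, 2 turned (Arid3a and Pbx2) and 8 were not called. The median difference was 0.22 with empty vector and −0.24 when swapped, beside 0.52 and 0.50 for all genes. Shifts were below 0 for 42 of the 54, with a median of −0.46 (−0.48 and −0.50 on the FL slides), against 51.7% and −0.02 for all genes; minus the all-gene median it was −0.33 to −0.50 over the settings tried. At an unadjusted p below 0.05, 18 shifted down and 0 up, and none passed the adjusted threshold. The median was −0.19 for let-7 against empty vector in FL and 0.23 for Lin28b against empty vector in BM. Ercc6, a DNA repair ATPase, was among the firmest swapped differences of the list (−2.53 ± 0.13, from −1.96), with levels of −2.05 and −1.99 in BM Lin28b and −4.44 and −4.67 in FL let-7.

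Probes that hold a site complementary to the seed were also looked at, and 4 of the genes found are on the target list as well. The motif CTACCTC was searched in the tested 60-base probe of each gene, and 108 genes (0.471%) held it. These are sites in the probe, not in the whole transcript. Their median shift was −0.22, 69 (63.9%) were below 0, and 13 were down and 2 up at an unadjusted p below 0.05. The 22820 genes without it had a median of −0.02, 51.7% below 0, and 743 down and 824 up. The other strand of the motif, GAGGTAG, was in 42 tested probes (0.183%), with a median of 0.07, 45.2% below 0, and 1 down and 3 up; no probe held both. The members of the target list whose tested probe holds the motif are shown as 30-base stretches of the probe (mm9), with the match in capitals; a match is a description and not a measured binding site, and gene models of that build were not used here.
Hmga2 (chr10:119798740-119798769, minus strand): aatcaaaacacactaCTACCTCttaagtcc
Pbx2 (chr17:34733366-34733395, plus strand): gtctgactcggatatCTACCTCggagggag
Gng5 (chr3:146168406-146168435, plus strand): gtcagtccttaacatCTACCTCtttgaatt
Pbx3 (chr2:34027511-34027540, minus strand): gcgctcacttaCTACCTCtgaacaatactc
Pbx2, a homeodomain partner of Hox proteins, read 1.87 and 2.12 in FL empty vector and 1.12 and 1.10 in BM empty vector, then 1.16 and 1.10 in FL let-7 and 1.70 and 1.76 in BM Lin28b. The order of the tissues reversed, from 0.89 to −0.60, with a shift of −1.48. Gng5, a G protein gamma subunit, went from 0.83 to −0.26 (shift −1.08), with levels of 5.79 and 5.85 in BM Lin28b and 5.50 and 5.62 in FL let-7. Pbx3 carries the same motif and had a shift of 0.12. Abcb9, a lysosomal peptide transporter outside the target list whose probe holds the motif, read −0.50 and −0.79 in BM Lin28b and −2.84 and −2.81 in FL let-7; it was called when swapped (−2.18 ± 0.25) and not with empty vector (0.17).

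The differences that were largest when swapped were called in the same direction with empty vector, for all 16 genes taken by size. Slc16a3, the lactate exporter of glycolytic cells, read −1.71 and −1.37 in BM Lin28b and 5.16 and 5.33 in FL let-7, a difference of 6.79 ± 0.26 (110.4-fold) beside 7.47 with empty vector. Dpysl4, of the collapsin response mediator family, read −6.34 and −6.75 against −0.05 and −0.06, a difference of 6.50 ± 0.57 (5.56 with empty vector). The uncharacterised transcript 2310065F04Rik had the top value of the 16, 7.52 ± 0.57, with −4.41 and −4.49 in BM Lin28b and 3.70 and 2.46 in FL let-7; it was 3.73 with empty vector, where BM arrays read 1.29 and 1.38. The keratin gene Krt75 was at least 77.6-fold higher and the glycogen-targeting phosphatase subunit gene Ppp1r3g at least 22.1-fold higher, since BM Lin28b arrays were not well above background.

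On the adult side Pgr, the progesterone receptor, read −0.19 and −0.38 in BM Lin28b on the tested probe. It was not well above background in FL let-7 on that probe, at least 29.4-fold lower there (at least 37.6-fold with empty vector). On its other probe the FL let-7 arrays read −7.769 and −3.475, with 1 of 2 well above background. The swapped difference of −3.30 on that other probe was not called. Epcam, an epithelial adhesion molecule, was at least 10.9-fold lower and Gatm, the first enzyme of creatine synthesis, at least 10.1-fold lower in FL let-7. Chd3, a chromatin remodelling ATPase, read 3.02 and 3.10 in BM Lin28b and −1.87 and −2.04 in FL let-7, a difference of −5.01 ± 0.14 beside −6.00 with empty vector. Ccn2, a matrix-associated growth factor, was lower in FL let-7 (−4.68 ± 0.96), where 1 of 2 arrays was well above background. It read −0.12 and 0.53 in BM Lin28b and −2.92 and −6.03 in FL let-7. Ccn2 is also made by fibroblasts and stromal cells, whose summed markers were higher in BM as given above, and that part was not tested. Leaving out replicate 2 of BM Lin28b ended the call of Ccn2 at −4.36.

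Glycolysis and hypoxia genes kept a fetal excess. Of 29 tested, 24 were higher and 1 lower when swapped, against 25 higher and 0 lower with empty vector; 24 persisted. The list median was 1.89 when swapped and 2.21 with empty vector. The median was above that of all genes under each of the 4 scalings, with 20 higher and 4 lower under median scaling. Aldoc, a glycolytic aldolase, read −0.75 and −0.93 in BM Lin28b and 3.66 and 3.43 in FL let-7 (4.38 ± 0.23, from 4.71). Pkm, pyruvate kinase, read 4.80 and 4.74 against 6.91 and 6.89 (2.13 ± 0.13, from 2.30), and Bnip3, a hypoxia-induced mitophagy receptor, 3.38 and 3.27 against 6.59 and 6.46 (3.20 ± 0.16, from 3.29). On these genes FL arrays were above BM arrays in every group. Hk2, a hexokinase, lost its call and Ero1a, an oxidoreductase of the endoplasmic reticulum, gained one. Shifts were below 0 for 26 of 29, with a median of −0.34.

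Ribosome biogenesis genes kept an adult excess. Of 30 tested, 18 were lower and 1 higher in FL let-7, against 19 lower and 3 higher with empty vector, and 19 persisted; the median was −0.70 beside −0.56. Rrs1, an assembly factor of the large subunit, read 2.69 and 2.67 in BM Lin28b and 1.13 and 1.25 in FL let-7 (−1.49 ± 0.12, from −1.54). Wdr12, of the PeBoW complex, differed by −1.41 ± 0.14 (from −1.47) and Nop58, a box C/D particle core protein, by −2.08 ± 0.27 (from −2.33). Polr1b, a subunit of RNA polymerase I, went from −0.42 to −1.22 ± 0.15.

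Inflammatory caspases were among the adult-high genes that persisted. Casp1 read 2.25 and 2.25 in BM Lin28b and −1.56 and −1.12 in FL let-7, a difference of −3.59 ± 0.17 beside −4.04. Casp4, which senses cytosolic lipopolysaccharide, read 1.64 and 1.43 against −3.53 and −1.68 (−4.14 ± 0.64, from −6.04), and the DNA sensor gene Aim2 differed by −1.59 ± 0.19. Of the 11 tested genes of the list 6 were lower and 2 higher, and 7 persisted. Pycard, the adaptor that joins sensors to Casp1, was higher in fetal cells by 0.79 ± 0.14 (from 0.49), and no gene of the list was called higher with median scaling.

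Among pro-B identity genes 16 of 32 were higher and 3 lower in FL let-7, and 16 persisted, 1 turned, 4 were not called and 2 were newly called. The list median of 0.56 is near the all-gene 0.50, and with median scaling the calls were 7 higher and 7 lower. Cd79a, the signalling chain of the B cell receptor, read 0.31 and 0.60 in BM Lin28b and 2.26 and 2.57 in FL let-7 (1.96 ± 0.18, from 1.94). Vpreb2, a surrogate light chain, differed by 1.59 ± 0.12 (from 1.10) and the cytokine receptor gene Flt3 by 2.05 ± 0.15 (from 2.39). Bmf, a BH3-only death protein gene, read −2.24 and −1.60 against 2.44 and 2.65 (4.46 ± 0.29), close to its 4.45 with empty vector. Hoxb4, a homeobox gene of blood progenitors, stayed lower in fetal cells, at −4.58 ± 0.58 with 1 of 2 FL let-7 arrays well above background, and at least 23.9-fold lower with empty vector.

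Other imprinted growth genes differed from H19. Of 21 tested, 10 were higher and 3 lower when swapped (13 and 2 with empty vector); 11 persisted and 1, H19, turned. Grb10, an adaptor that restrains growth factor signalling, read −4.15 and −4.33 in BM Lin28b and −0.24 and −0.91 in FL let-7 (3.67 ± 0.25, from 4.42). The cell cycle inhibitor gene Cdkn1c differed by 2.87 ± 0.24 (from 2.48), the scavenging receptor gene Igf2r by 1.22 ± 0.13 (from 1.74) and the splicing protein gene Snrpn by 2.15 ± 0.25 (from 3.57). The list's median difference was 1.80 when swapped, and 0.18 with normexp and quantile scaling.

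Interferon-response genes as a list showed a fetal excess when swapped that the list did not have with empty vector. Of 30 tested, 18 were higher and 1 lower in FL let-7, against 3 higher and 4 lower with empty vector; 15 were newly called. The list median was 1.87 when swapped and −0.43 with empty vector. All 30 had a shift above 0, with a median of 2.40 and 21 at an unadjusted p below 0.05, and none was called after adjustment. Zbp1, a sensor of nucleic acids, read −2.13 and −1.97 in BM Lin28b and 1.69 and 1.85 in FL let-7, against −1.35 and −1.02 in BM empty vector and 0.70 and −0.21 in FL empty vector (3.82 ± 0.31, from 1.43). Irf9, which binds DNA for the interferon-activated STAT complex, read 1.46 and 1.45 against 3.51 and 3.52 when swapped (2.06 ± 0.23, from 0.58), and the RNA sensor gene Ddx58 differed by 2.04 ± 0.24 (from 1.02). Stat2, another part of that complex, differed by 0.89 ± 0.12. These genes were taken by smallest swapped p. Unlike the list median, Zbp1, Irf9 and Ddx58 already had a positive difference with empty vector, so they show a larger excess rather than a new one.

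The level of that list differed from empty vector in both tissues, and the 2 FL empty-vector arrays were far apart. Its summed level was 181.7 to 194.5 in FL let-7 against 50.6 to 126.6 in FL empty vector, and 53.5 to 57.3 in BM Lin28b against 84.4 to 107.8 in BM empty vector. The median of the list was 1.42 for let-7 against empty vector and −0.86 for Lin28b against empty vector. The median shift was 1.50 on slide 2 and 3.25 on slide 3. The count of 18 is 8 with median scaling and with slide as a random block, and 7 without either array of BM Lin28b or without replicate 1 of FL let-7, and 8 without replicate 2 of FL let-7. The vectors differed between the tissues, and the part of the viral transfer was not tested.

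MHC class I genes, many of them interferon-inducible, also had upward shifts. Of 18 tested, 13 were higher and 1 lower when swapped, against 7 and 4, and the median was 1.75 beside 0.62. All 18 shifts were above 0, with a median of 1.05 (0.64 on slide 2 and 1.59 on slide 3) and 11 at an unadjusted p below 0.05. H2-Q6, a class Ib heavy chain, read 1.95 and 2.06 in BM Lin28b and 4.98 and 5.20 in FL let-7 (3.09 ± 0.31, from 1.82); signals of near-identical class I genes on one probe cannot be told apart. Tapbp, the tapasin of the peptide-loading complex, differed by 2.25 ± 0.18 (from 1.36), H2-T23 by 2.83 ± 0.34 (from 1.59) and the immunoproteasome gene Psmb10 by 0.95 ± 0.13 (from 0.49). In these genes FL arrays were above BM arrays in both comparisons.

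MHC class II genes were mostly lower in fetal cells in their calls. Of 11 tested, 6 were lower and 1 higher in FL let-7, with a median of −1.45 (−0.16 with empty vector). Their shifts had a median of 0.27, opposite in sign to the change between those medians, with 8 above and 3 below 0, and 2 up and 1 down at an unadjusted p below 0.05. Of the calls with empty vector, all 6 persisted. Cd74, the invariant chain, read 2.64 and 3.34 in BM Lin28b and 0.49 and 0.77 in FL let-7 (−2.36 ± 0.25, from −2.25). H2-DMa, a peptide exchange chain, differed by −2.10 ± 0.26 (from −2.86). H2-Aa, a class II alpha chain, differed by −1.90 ± 0.15 when swapped and was at least 5.88-fold lower with empty vector, where FL arrays were not well above background. H2-Oa, a modulator of H2-DM, was higher by 1.37 ± 0.18 (from 1.24); with median scaling 0 genes of the list were called higher.

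**Figure D3:**
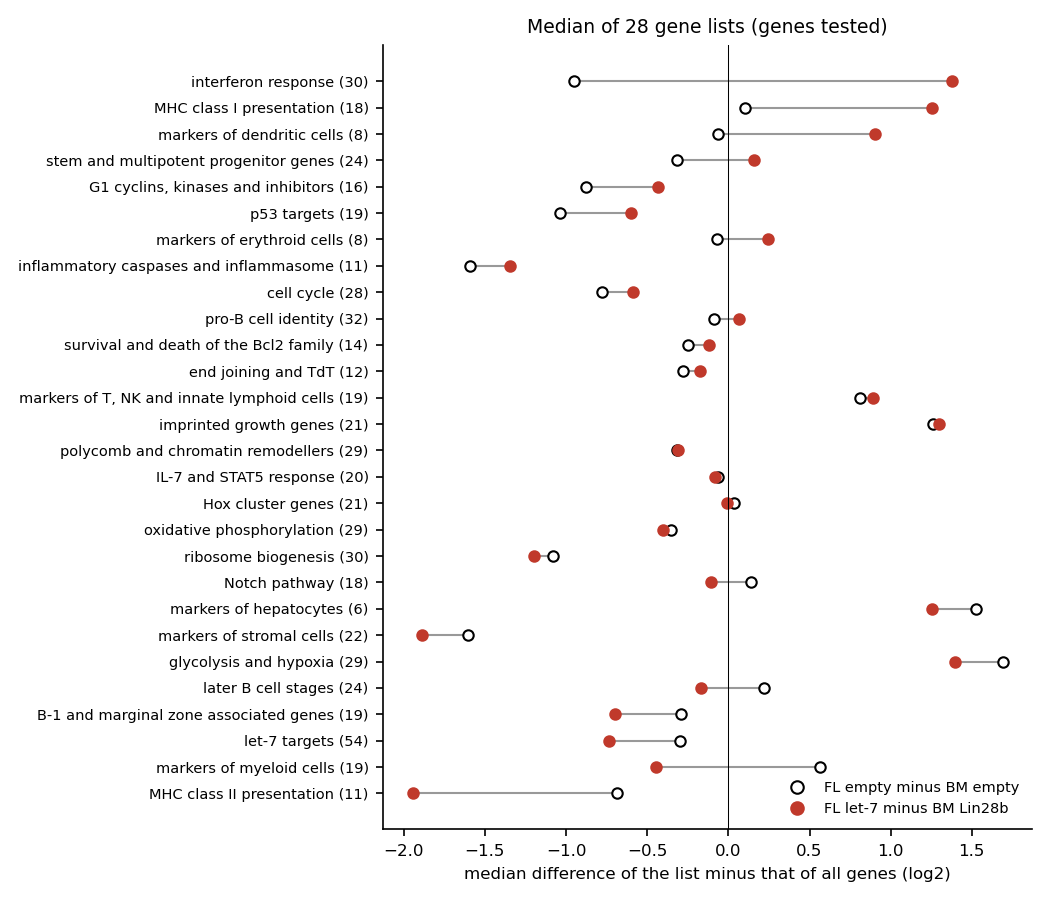
Median fetal minus adult difference of 28 gene lists after subtracting the median of all genes (log2), with empty vector (open) and in FL let-7 minus BM Lin28b (filled), with the number of genes tested. Interferon response goes from −0.95 to 1.38 and MHC class I from 0.10 to 1.26, while glycolysis (1.69 and 1.40) and ribosome biogenesis (−1.08 and −1.20) stay on their sides.

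**Figure D4:**
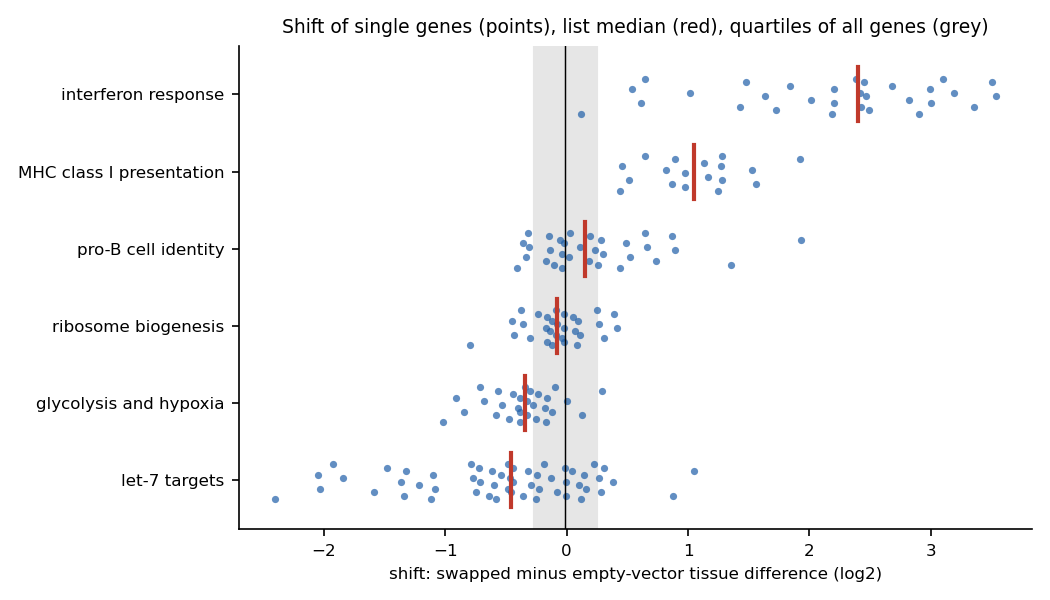
Shift of each gene's tissue difference (log2, swapped minus empty vector) by gene list, 1 point a gene, with the list median in red and the quartiles of all genes in grey. All 30 interferon-response and all 18 MHC class I genes lie above 0, and 42 of 54 let-7 targets lie below it.

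Of genes called with empty vector, those whose difference moved most firmly towards 0 included some that ended near it. Hspa12b, an endothelial heat shock protein gene, read 0.15 and 0.53 in FL empty vector and −4.16 and −4.06 in BM empty vector, then −2.60 and −2.67 in FL let-7 and −3.44 and −3.52 in BM Lin28b. Its fetal excess dropped from 4.45 to 0.84 (shift −3.60, adjusted p = 0.0728, limma), and it was not called under quantile or median scaling (0.26 and 0.04). AW112010, an interferon-inducible transcript, went from −2.28 to 0.35 (0.42 and 0.44 in BM Lin28b, 0.77 and 0.79 in FL let-7), or −0.46 with median scaling. Trgv2, a gamma chain variable segment of the T cell receptor, was at least 5.77-fold lower in fetal cells with empty vector, where FL arrays were not well above background, and differed by −0.98 when swapped.

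The 49 genes that were called in opposite directions were 25 that went from higher to lower in fetal cells and 24 the other way. With quantile scaling 28 of the 49 also turned. For 3 of them both groups of a comparison were not well above background. The count was 16 to 20 without any 1 array of BM Lin28b or BM empty vector, and 181 without replicate 1 of FL empty vector. Crhbp, which binds corticotropin-releasing hormone, read −2.56 and −2.54 in FL empty vector and −0.26 and −0.37 in BM empty vector, then 0.22 and 0.05 in FL let-7 and −1.36 and −0.97 in BM Lin28b. The tissues changed places completely, from −2.24 to 1.30 (shift 3.54, adjusted p = 0.0728, limma), though the swapped call was lost with median scaling (0.49). Tnni2, a fast skeletal troponin gene, went from 1.78 to −1.06, with 1.88 and 1.72 in BM Lin28b and 0.79 and 0.67 in FL let-7.

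Serpina3g, a serine protease inhibitor induced by interferon, read −1.45 and −0.62 in FL empty vector and 1.48 and 1.60 in BM empty vector, then 1.74 and 2.21 in FL let-7 and 0.84 and 0.45 in BM Lin28b. Its difference went from −2.58 to 1.33, and the swapped call was lost with median scaling (0.53), without replicate 2 of BM Lin28b (1.14) or without replicate 2 of FL let-7 (1.09). Vipr1, a receptor for vasoactive intestinal peptide, went from −2.71 to 2.92 on the tested probe, but its other probe had a shift of 0.08. Tigd4, a transposon-derived gene, read −2.61 and −2.63 in BM Lin28b and −4.49 and −3.79 in FL let-7 and went from 1.80 to −1.52; here the BM arrays moved, since BM empty vector read −5.60 and −5.56. Its swapped call was lost without either array of BM Lin28b. Ifitm1 (an interferon-induced membrane protein gene, 1.16 to −1.93) and Bank1 (a B cell scaffold protein gene, 1.11 to −1.17) also turned and were picked for mention after their values were seen.

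**Figure D5:**
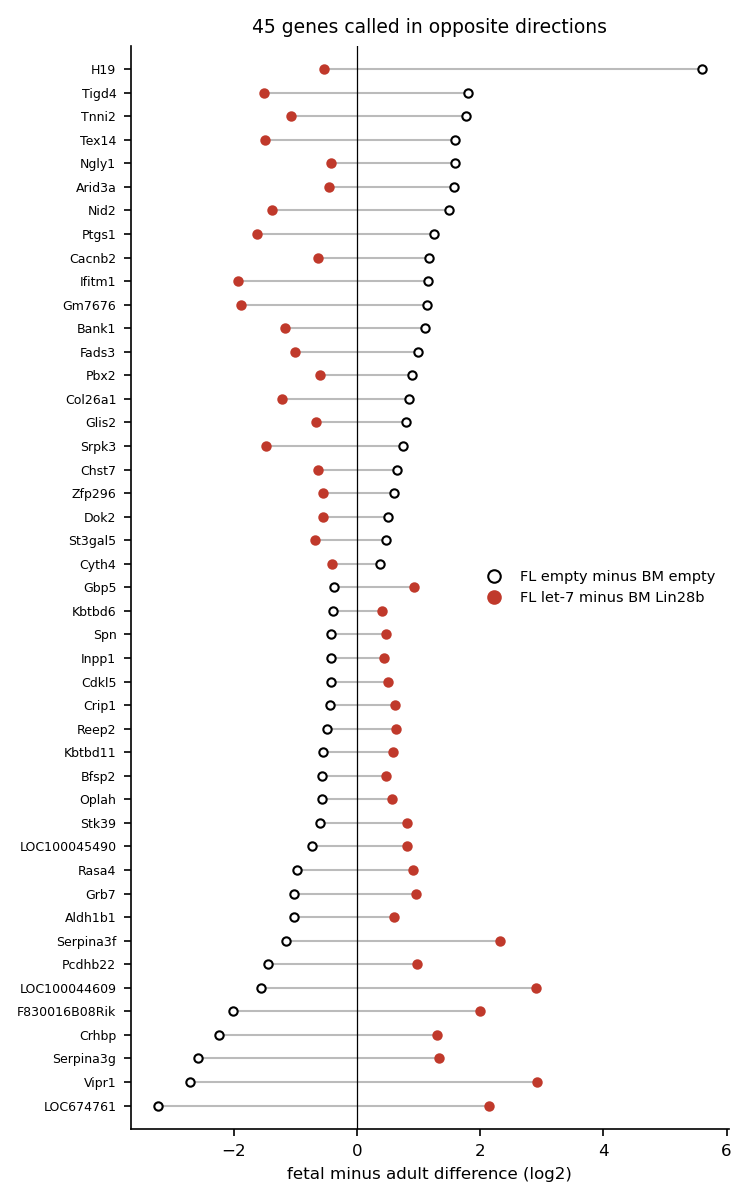
Fetal minus adult difference (log2) with empty vector (open) and in FL let-7 minus BM Lin28b (filled) of 45 of the 46 turned genes that were well above background on at least 1 array in each comparison. H19 spans the widest gap, from 5.59 to −0.53.

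Other differences were larger after the swap. Pcp4l1, a calmodulin-binding peptide gene, read −1.27 and −1.17 in FL empty vector and 0.23 and 0.01 in FL let-7, and −3.39 and −3.49 in BM empty vector and −4.11 and −4.21 in BM Lin28b. Both tissues moved away from each other, from 2.22 to 4.28 ± 0.14 (shift 2.06, adjusted p = 0.0904, limma). Of the 8 genes taken by the same rule, Gbp2 (2.20 to 3.33) and Tgtp1 (0.69 to 2.31) encode interferon-induced GTPases and are not on the interferon list. Gimap4, a lymphocyte GTPase gene, went from 0.60 to 1.93. The NK receptor gene Klrb1c went from 0.81 to 2.56. Il2ra, the alpha chain of the interleukin-2 receptor and a marker of later B cell precursors, read −1.08 and −0.52 in BM Lin28b and 2.15 and 2.47 in FL let-7 (3.11 ± 0.29, from 1.32).

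Among the genes called when swapped and not with empty vector, Serpina3i, a relative of Serpina3g, read −4.65 and −4.79 in BM Lin28b and −3.10 and −2.97 in FL let-7 (1.68 ± 0.15, from −0.13). Pfkfb1, which sets the fructose-2,6-bisphosphate level, went from 0.00 to −1.91 ± 0.20, with −0.90 and −1.05 in BM Lin28b and −3.10 and −2.66 in FL let-7. Ckap4, a membrane protein of the endoplasmic reticulum, went from 0.41 to −1.19 ± 0.17. For none of these 3 was the shift itself called (adjusted p = 0.110, 0.163 and 0.173, limma).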

How the data were processed

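Labelled RNA (100 ng of total RNA amplified, Cy3) was read on 8 Agilent 1-colour arrays. The deposited scanner files hold spot intensity corrected for background by Feature Extraction 9.5.3.1, per the file headers. A deposited log2 matrix, which the authors normalized in a way not stated in the labels or headers, was not used. Control spots (1377 of 44397 per array) were removed.

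Processed signals were divided by each array's 75th percentile and put on the log2 scale. Of 39429 probes, 31 with outlier spots and 10988 well above background on fewer than 2 arrays were left out. The probe of highest mean stood for each of 22928 genes (17093 with a RefSeq symbol of GRCm38.p6, from which no gene coordinate was used; 206 genes had probes called both ways when swapped). limma 3.58.1 in R 4.3.3, with the package data.table (1.17.8), fitted 1 mean per group over 8 arrays (4 residual and 1.69 prior degrees of freedom), with Benjamini-Hochberg adjustment below 0.05; precision is limited by having 2 arrays a group. The script was tested on simulated data. A group nowhere well above background gives a lower bound: the brighter group's mean is set against each dim array's own value or its detection limit (its dimmest spot called well above background), whichever is larger.

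Named genes were 10 genes of the Lin28b/let-7 axis, the 8 largest swapped differences each way, those of smallest shift p moving towards or away from 0 (8 each), up to 10 turned, up to 8 newly called, and up to 4 of each of 28 lists by swapped p. Some genes are not reported here. Members and lists were chosen with earlier results of these data known. Alternatives changed scaling, background correction, filter, variance model, probe choice, block and arrays. Replicate numbers do not pair the tissues: deviations of same-numbered arrays had r = −0.0024 between FL let-7 and BM Lin28b. The value was 0.517 between the FL groups, which share both slides and sorts.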

Additional observations from a re-analysis of the deposited data

Results flagged for a closer look

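The change of the H19 tissue difference passed the test of that change itself, at −6.13 on the log2 scale (5.59 with empty vector, −0.53 between FL let-7 and BM Lin28b; adjusted p = 0.00805, limma). On that probe the arrays of a group lay far closer to each other than to those of the other groups of the same tissue. The gene's other probe had a shift of −0.58.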

How the results depend on the processing

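Counts below are in the order swapped higher and lower, empty-vector higher and lower, shift up and down, persisting and turned, with the values as reported 9061, 4245, 9195, 4463, 0, 1, 11514 and 49. Quantile scaling gave 5658 swapped higher, 5886 empty-vector higher, and 13 shifts up and 10 down. Median scaling gave 4187 and 8202 swapped, 4348 and 8269 with empty vector, 1 shift up and 25 turned. Normexp and quantile gave 5342 swapped higher, 5674 empty-vector higher, and 38 shifts up and 24 down. With no filter on dim probes 14971 were swapped higher and 14771 empty-vector higher. A filter of 4 arrays gave 3 shifts each way, and trend with robust estimation 40 up and 16 down. The 4-array fits gave 27 turned. Slide as a random block (correlation 0.581) gave 62 shifts up, 43 down and 15 turned. The mean of all probes gave 0 shifts down. With the replicate block 9213 and 4170 were called swapped, 11604 persisted, 42 turned and 0 shifts were called; it changed no other count by over 1.5 times. Leaving out 1 array gave 5685 to 10061 and 2267 to 4898 swapped, 6360 to 9656 and 2724 to 4669 with empty vector, 0 to 140 shifts up and 0 to 45 down, 7450 to 11965 persisting and 16 to 181 turned. Signs turned for the swapped difference of Arid3b (−0.35) and AW112010 (−0.46) with median scaling and of H19 (0.45) with the mean of all probes. The shift of Lin28a turned with normexp and quantile (−0.029) and without replicate 1 of FL let-7 (−0.25 to 0.54 over the arrays left out). That of Vipr1 was −0.073 without replicate 1 of FL let-7 (range to 6.11), since its other probe was then the brighter one and was tested; on the probe of the main setting it was 5.35. For the other sign changes the cause was not tested beyond the setting itself. Signal over background limits FL values more than BM ones.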
